A study of Homo sapiens with 4 samples.

Results

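The subject is a group of 30 genes that have been reported as targets of the microRNA miR-124, mostly genes of signalling, transcription and membrane trafficking. The members were listed by name, and each was represented by the brightest of the array's probe sets assigned to it alone. Of the 30, 27 were measured, among 19798 genes with such a probe set. The kinase gene MAPK14, the junction protein gene F11R and the small GTPase gene NRAS had none in the annotation used and were not analysed here. The 27 had 75 probe sets in all, of which 66 belonged to the 18 members with several, and every one of these was examined beside the brightest.

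Total RNA of HCT-116 dicer- cells was hybridised to 4 arrays. HCT-116 is a human colon carcinoma line and Dicer is the enzyme that cuts microRNA precursors; the labels do not describe the dicer- alteration. The groups were 2 mock transfections, 1 transfection with miR-124 G/P, a duplex with an intact guide strand, and 1 transfection with miR-124 G10.12/P, a duplex with a segmented guide strand. Both duplexes were given at 10 nM, and all cells were collected at 24 h. The question of the series is whether activity through the microRNA seed persists after the guide strand is segmented. No transfection with an unrelated duplex was analysed here, so effects of any duplex and effects of miR-124 cannot be told apart. Each duplex had a single array, so its differences from mock have no replicate check. The spread in the limma test comes from the mock pair and a prior over all genes, and each single treated array is taken to vary in the same way. Separate cultures are not stated for the mock arrays, so a p-value here reflects array-to-array spread that may be technical.

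A microRNA is loaded into an Argonaute protein, which pairs the microRNA's seed, near its 5′ end, with matching sites that lie mostly in the 3′ untranslated regions of messenger RNAs. Pairing leads to loss of the poly(A) tail and decay of the messenger RNA, and to less translation. miR-124 is abundant in neurons and scarce in epithelial cells, and its reported targets include many genes that non-neuronal cells use for adhesion, signalling and vesicle traffic. A gene can also be regulated at the protein level with little change of its messenger RNA, which arrays do not measure.

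The median intensity over all probe sets lay between 42.6 and 46.3 on the 4 arrays. Of 9 measured epithelial and colon markers, 0 fell and 2 rose with the intact duplex, against 10.4% and 14.5% of all genes. By sign alone, 3 of the 9 stood below mock and 6 above with the intact duplex. With the segmented duplex 6 stood below and 3 above. The E-cadherin gene CDH1 rose from 11.04 ± 0.05 (SD, n = 2) in mock cells to 11.83, a change of 0.79 (limma adjusted p = 0.0227), and stood at 11.64 with the segmented duplex (adjusted p = 0.0776). The intestinal transcription factor gene CDX2 rose from 7.69 ± 0.03 (SD, n = 2) to 8.38, a change of 0.69 (limma adjusted p = 0.0291), and stood at 7.88 with the segmented duplex. KRT18, with log2 levels of 8.39 to 8.96, changed by -0.52 with the intact and -0.49 with the segmented duplex. KRT20 changed by -0.32 and -0.11, and neither gene passed with either duplex. EPCAM had log2 levels of 13.01 to 13.06, and VIL1 (2.77 to 3.19) and CEACAM5 (1.82 to 2.18) were dim on every array. The part of these markers in the members' changes was not tested. Of 14 markers of other cell types, COL1A1 (8.41 to 9.76) and ALB (6.91 to 7.18) were the brightest, and the list's median level stayed between 3.71 and 4.12. With the intact duplex COL1A1 changed by 1.20 and GFAP by -0.70, and the median change of the list was -0.05. GFAP went from 3.41 and 3.59 on the mock arrays to 2.80, dim levels at which no detection call was available. The log2 of the list's summed intensity was 9.53 and 9.38 in the mock pair, 10.21 with the intact and 9.83 with the segmented duplex, and the part of this in the results was not tested. In RNA from whole cultures, fewer cells of a type and less RNA per cell cannot be told apart. Between the mock arrays the median size of the members' difference was 0.11 on the log2 scale, and 0 of the 27 differed by 1.5-fold, against 3.23% of all genes. The widest gap was that of BACE1, which was lower by 0.38 on the second mock array.

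With the intact duplex, 15 of the 27 measured members fell and 1 rose at a limma adjusted p below 0.05, and 11 did not pass. Over all 19798 genes the same test called 10.4% lower and 14.5% higher. The median log2 change was -0.72 over the members and 0.02 over all genes, and the members' changes ran from -2.48 for CD164 to 0.91 for EFNB1. By size alone, 15 members were at least 1.5-fold below both mock arrays and 1 was that far above both, against 9.52% and 13.7% of all genes.

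With the segmented duplex, 7 members fell, 0 rose and 20 did not pass, against 2.68% of all genes lower and 3.31% higher by limma. The median was -0.36 over the members and 0.01 over all genes. All 7 had also fallen with the intact duplex; both comparisons use the same mock arrays. The size rule placed 9 members at least 1.5-fold below both mock arrays and 0 above, where 4.89% and 7.37% of all genes stood. The count depended on the variance prior: with a prior that follows the level and is fitted robustly, 13 members fell and 1 rose, while the shares of all genes were 10.3% lower and 17.1% higher.

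The array scaling also bore on these counts. Centring each array on its median over genes lowered all changes by about 0.24 with the intact and 0.19 with the segmented duplex, so that 67.2% of all calls with the intact duplex were falls, against 41.8% without centring, and 67.9% against 44.8% with the segmented duplex. On that scale 17 members fell and 1 rose with the intact duplex, where 20.6% of all genes fell, and 10 fell and 0 rose with the segmented duplex, where 6.34% of all genes fell. A further quantile normalization moved the median change of all genes by -0.02 with each duplex, and by it 16 and 8 members fell.

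**Figure D1:**
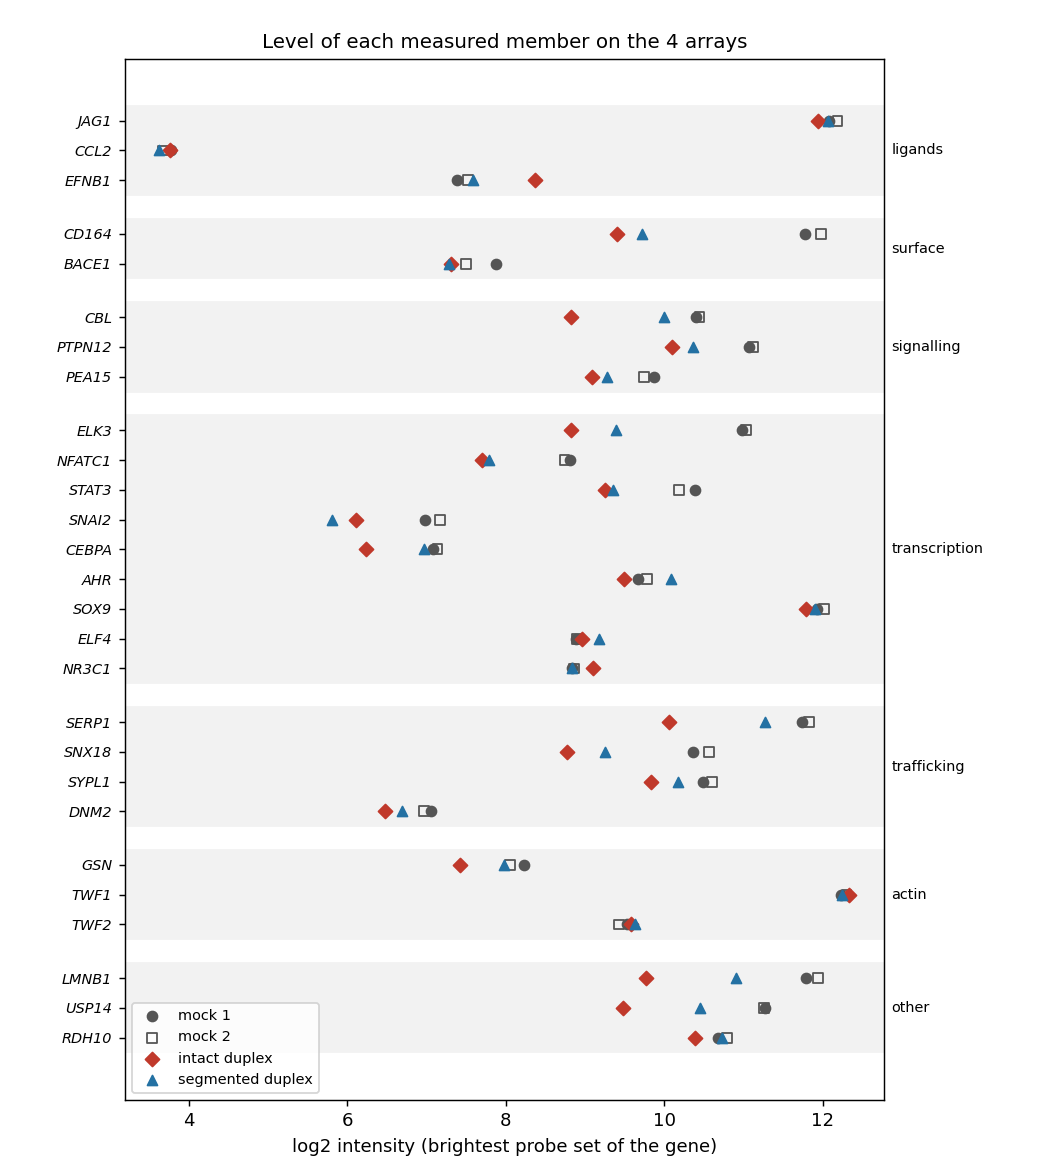
Log2 intensity of each of the 27 measured members on the 4 arrays, with members grouped by role and ordered by their change with the intact duplex. Levels are to be read along a row and not between rows, since probe sets differ in brightness; in the row of CD164 both duplex arrays lie far to the left of both mock arrays, and in that of EFNB1 the intact array lies to the right of the other 3.

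Among the secreted and membrane-bound ligands, only EFNB1 passed the test, and it rose. EFNB1 encodes ephrin-B1, a membrane ligand of Eph receptors, and had log2 levels of 7.38 and 7.52 in the mock pair, 8.36 with the intact and 7.59 with the segmented duplex. The intact array stood above the other 3. The rise of 0.91 (limma SE 0.14, adjusted p = 0.0207) was 1.88-fold and was 0.67 with centred arrays. With the segmented duplex the change was 0.14 (adjusted p = 0.575), and -0.06 with centred arrays. A second, dimmer probe set of EFNB1 stood at 0.23 and missed the threshold, so the call rests on the brighter one. JAG1, a ligand of Notch receptors, stood at 12.07 and 12.18 in mock cells, 11.94 with the intact and 12.06 with the segmented duplex. Its changes of -0.19 and -0.07 had adjusted p-values of 0.362 and 0.789. The chemokine gene CCL2 had log2 levels between 3.63 and 3.78 on all 4 arrays and lay among the dimmest 22.7% of genes. Whether CCL2 was above background was not tested, since detection calls were not used.

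CD164, a sialomucin of the cell surface and of endosomes, fell with both duplexes and, on the brightest probe set over the 4 arrays, changed more than any other measured member with each. With the mean of its probe sets its changes were -1.47 and -1.01, smaller than those of ELK3 at -2.39 and -1.70. Its log2 levels were 11.78 and 11.98 in the mock pair, 9.40 with the intact and 9.72 with the segmented duplex. Both duplex arrays were far below both mock arrays. The falls were 5.57-fold (log2 change -2.48, limma SE 0.15, adjusted p = 0.00824) and 4.48-fold (-2.16, adjusted p = 0.0349). The protease gene BACE1, whose product makes the first cut in the release of amyloid beta, had levels of 7.88 and 7.50 in mock cells, 7.31 with the intact and 7.28 with the segmented duplex. Its changes of -0.38 and -0.41 were about as wide as the gap of the mock arrays and did not pass (adjusted p = 0.262 and 0.29).

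All 3 measured members of the signalling group fell with the intact duplex, and 0 of the 3 passed with the segmented duplex. All 3 stood below mock with the segmented duplex too, and their calls depended on the fit. CBL passed there in 3 of 8 limma fits, and PTPN12 and PEA15 in 5 of 8 each. CBL, a ubiquitin ligase that marks activated receptor tyrosine kinases for breakdown, had log2 levels of 10.40 and 10.44 in the mock pair, 8.82 with the intact and 10.00 with the segmented duplex. The intact array was lower by 3.02-fold (limma SE 0.12, adjusted p = 0.00897), while the segmented array lay 0.42 below the mock mean (adjusted p = 0.13). PTPN12, a tyrosine phosphatase that acts on adhesion and receptor signalling proteins, had levels of 11.06 and 11.12 in mock cells, 10.10 with the intact and 10.36 with the segmented duplex. Its changes were -0.99 (adjusted p = 0.0151) and -0.73 (adjusted p = 0.0574). The last value missed the threshold narrowly, and both duplex arrays lay below both mock arrays. PEA15, a phosphoprotein that binds ERK and death effector proteins, had levels of 9.87 and 9.74, then 9.08 and 9.27, with changes of -0.72 (adjusted p = 0.032) and -0.53 (adjusted p = 0.104). Another probe set of PEA15 changed more, as described with the probe sets.

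Of the 9 transcription factor genes, 5 fell with the intact duplex, 3 of these also with the segmented duplex, and 4 did not pass with either. ELK3, an ETS factor of the ternary complex family that acts with serum response factor, showed the largest change in this group. Its log2 levels were 10.98 and 11.03 in the mock pair, 8.82 with the intact and 9.39 with the segmented duplex. The falls were 4.56-fold (log2 change -2.19, limma SE 0.12, adjusted p = 0.00824) and 3.06-fold (-1.61, adjusted p = 0.0349). The 2 mock arrays differed by 0.05, a small part of either change.

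NFATC1, a factor that calcineurin sends to the nucleus, had log2 levels of 8.81 and 8.74 in mock cells, 7.70 with the intact and 7.78 with the segmented duplex. It fell by 1.07 (adjusted p = 0.0136) and by 0.99 (adjusted p = 0.0412). STAT3, the factor activated by interleukin-6 type cytokines, had levels of 10.38 and 10.18, then 9.25 and 9.35. It fell by 1.03 with the intact duplex (adjusted p = 0.0201), and with the segmented duplex its change of -0.93 had an adjusted p of 0.0538. Both duplex arrays lay below both mock arrays for each gene. Dimmer probe sets of NFATC1 and STAT3 did not fall, and with the mean of all probe sets the changes were -0.09 and -0.42 with the intact duplex (adjusted p = 0.631 and 0.0745) and -0.34 for NFATC1 with the segmented duplex (adjusted p = 0.176).

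SNAI2, also known as Slug, represses epithelial genes such as the E-cadherin gene. Its log2 levels were 6.98 and 7.17 in the mock pair, 6.12 with the intact and 5.81 with the segmented duplex. It was the only called member with a larger change with the segmented duplex, -1.27 (adjusted p = 0.0386), than with the intact duplex, -0.96 (adjusted p = 0.0217), and the difference of the duplexes did not pass. CEBPA, a differentiation factor of myeloid, liver and fat cells, had levels of 7.08 and 7.14, then 6.23 with the intact and 6.97 with the segmented duplex. It fell by 0.88 with the intact duplex (adjusted p = 0.0185) and stood 0.14 below the mock mean with the segmented duplex (adjusted p = 0.528).

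The other 4 transcription factors did not pass with either duplex. AHR, a receptor activated by dioxin-like ligands, had levels of 9.66 and 9.78, then 9.49 with the intact and 10.09 with the segmented duplex. The intact array lay below both mock arrays and the segmented array above both, with changes of -0.23 and 0.37 that did not pass (adjusted p = 0.278 and 0.18). SOX9, a factor of intestinal crypts and cartilage, stood between 11.79 and 12.02 on the 4 arrays, and the ETS factor gene ELF4 between 8.89 and 9.17. NR3C1, the glucocorticoid receptor, had levels of 8.83 and 8.86 in mock cells, 9.10 with the intact and 8.84 with the segmented duplex. Its change of 0.26 with the intact duplex had a 95% limma interval from -0.08 to 0.60.

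Of the 4 trafficking genes, 3 fell with the intact duplex and 1 also with the segmented duplex. SERP1, a small protein that protects unfinished membrane proteins at the endoplasmic reticulum, had log2 levels of 11.73 and 11.82 in the mock pair, 10.06 with the intact and 11.26 with the segmented duplex. It was 3.30-fold lower with the intact duplex (limma SE 0.13, adjusted p = 0.00873), and its change with the segmented duplex was -0.51 (adjusted p = 0.102). SNX18, a sorting nexin that bends membranes in endocytosis and autophagy, had levels of 10.36 and 10.56, then 8.77 and 9.25. It fell with both duplexes, with log2 changes of -1.69 (adjusted p = 0.00965) and -1.21 (adjusted p = 0.0412). SYPL1, a vesicle membrane protein related to synaptophysin, had levels of 10.48 and 10.60, then 9.83 and 10.18, with changes of -0.71 (adjusted p = 0.0313) and -0.36 (adjusted p = 0.183). The dynamin gene DNM2, whose GTPase pinches off endocytic vesicles, had levels of 7.06 and 6.97, then 6.47 and 6.69. Both duplex arrays lay below both mock arrays for all 4 genes. For DNM2 the change of -0.54 with the intact duplex had an adjusted p of 0.0539, and it passed in 6 of the other 7 fits that were tried, with values from -0.78 to -0.47.

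The actin regulators split. GSN, gelsolin, which severs and caps actin filaments, had log2 levels of 8.23 and 8.06 in the mock pair, 7.42 with the intact and 7.97 with the segmented duplex. It fell by 0.72 with the intact duplex (adjusted p = 0.0366), and its change of -0.17 with the segmented duplex did not pass (adjusted p = 0.509). The twinfilin genes TWF1 and TWF2, whose products bind actin monomers and filament ends, did not pass with either duplex. TWF1 stood at 12.22 and 12.30 in mock cells, 12.33 with the intact and 12.24 with the segmented duplex, and TWF2 at 9.53 and 9.42, then 9.58 and 9.62. On the brightest probe sets the limma intervals for the intact duplex ran from -0.27 to 0.42 for TWF1 and from -0.26 to 0.46 for TWF2. A fall of 1.5-fold (0.58 on the log2 scale) lies outside both. A dimmer probe set of TWF1 stood at -0.29, with an interval from -0.64 to 0.06 that holds such a fall.

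Of the 3 remaining members, LMNB1 and USP14 fell with both duplexes. LMNB1, the nuclear lamina protein lamin B1, had log2 levels of 11.79 and 11.93 in the mock pair, 9.77 with the intact and 10.90 with the segmented duplex. The falls were 4.26-fold (adjusted p = 0.00829) and 1.95-fold (adjusted p = 0.0463). USP14, a deubiquitinase of the proteasome, had levels of 11.27 and 11.26, then 9.48 and 10.45, falls of 3.43-fold (adjusted p = 0.00829) and 1.76-fold (adjusted p = 0.0484). For both genes the segmented array lay between the mock arrays and the intact array. RDH10, a retinol dehydrogenase that starts the synthesis of retinoic acid, had levels of 10.68 and 10.79, then 10.39 and 10.73. Its changes of -0.34 and -0.01 did not pass (limma adjusted p = 0.14 and 0.98). Over the 8 limma fits RDH10 passed in 4 with the intact duplex, with values from -0.59 to -0.32, and in 0 with the segmented duplex.

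**Figure D2:**
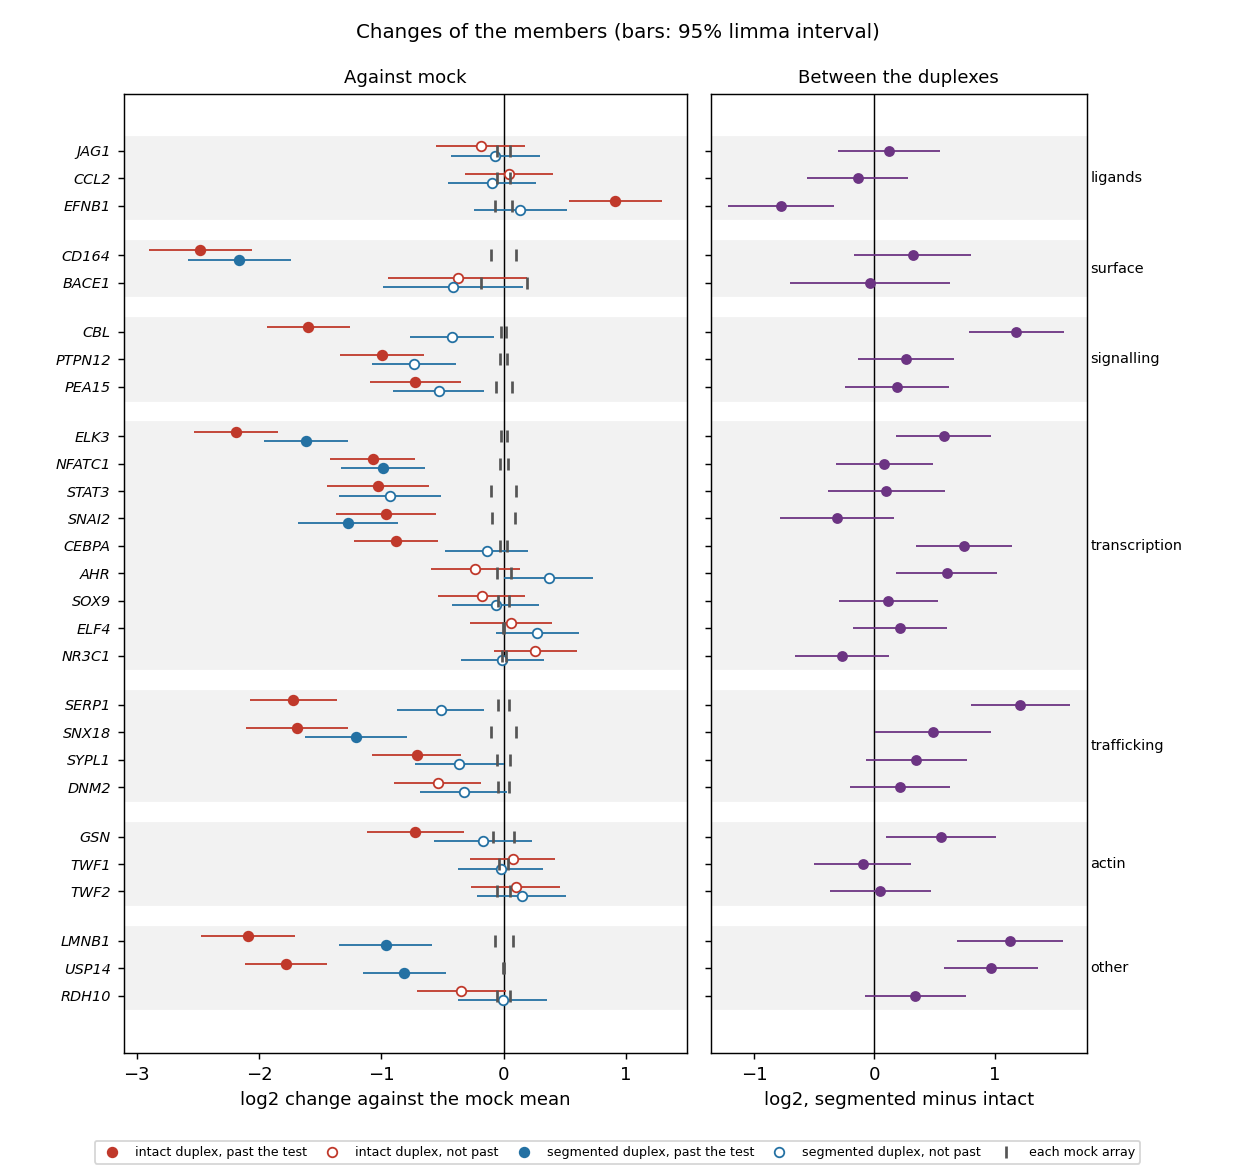
Left, log2 change of each member against the mean of the mock arrays, with filled points for a limma adjusted p below 0.05, bars for the 95% limma interval and grey ticks for each mock array; right, the log2 difference of the segmented from the intact duplex with its interval. CD164, ELK3, NFATC1, SNAI2, SNX18, LMNB1 and USP14 have filled points for both duplexes, and in the right panel 9 intervals lie above 0 and 1 below.

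The duplexes were compared directly by the contrast of the segmented with the intact array. Its spread comes from the mock pair and the prior over all genes, since neither duplex was replicated. No member passed in limma at an adjusted p below 0.05, and neither did any of the 19798 genes (0% called); at an unadjusted p below 0.05 it was 10 of the 27 members and 16.5% of all genes. The lowest adjusted p, among the members as among all genes, was 0.181. Under the trended and robust prior 9 members were higher and 1 lower with the segmented duplex, beside 6.82% and 5.36% of all genes, so whether any call is made depends on the prior. By size, 6 members were at least 1.5-fold higher and 1 lower with the segmented duplex, against 5.02% and 4.96% of all genes.

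Of the 15 members that fell with the intact duplex, 14 were nearer to mock with the segmented duplex. These 15 were picked by the intact array, which by itself favours a second array nearer to mock. The same share was not worked out over all genes, so the count does not set the members apart. SERP1 differed by 1.21 on the log2 scale between the duplexes (95% limma interval 0.80 to 1.62), CBL by 1.17 (0.78 to 1.57), LMNB1 by 1.13 (0.68 to 1.57) and USP14 by 0.97 (0.58 to 1.36). CEBPA followed at 0.74 (0.34 to 1.14). For other members the difference was smaller on the brightest probe set. NFATC1 differed by 0.08 (-0.32 to 0.48), STAT3 by 0.10 (-0.38 to 0.58), PEA15 by 0.19 (-0.24 to 0.62), PTPN12 by 0.26 (-0.14 to 0.66) and CD164 by 0.32 (-0.17 to 0.80). These intervals hold 0 but reach up to 0.80, so they do not show that the duplexes act alike on these genes. For PEA15 the probe set brightest in mock cells differed by 0.80 (0.38 to 1.22), and that of SYPL1 by 0.68 (0.20 to 1.16), against 0.35 on the one used. EFNB1 was lower with the segmented duplex by 0.78 (-1.21 to -0.34), and AHR was higher by 0.60 (0.18 to 1.02).

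The brightest probe set did not always speak for the gene. A fit over all 35184 probe sets with 1 gene, chosen after the data were seen, called 40 of the members' 75 probe sets lower and 3 higher with the intact duplex, against 11.7% and 13.8% of all of them, and 22 lower and 0 higher with the segmented duplex, against 3.7% and 3.22%. Probe sets of 1 gene are not independent measurements. For ELK3 all 4 probe sets fell with both duplexes, with log2 changes of -2.69 to -2.17 for the intact and -1.83 to -1.51 for the segmented duplex. USP14 had 6 probe sets that all fell with the intact duplex, with changes of -2.09 to -1.28, and 4 of the 6 also fell with the segmented duplex. Both probe sets of CBL fell with the intact duplex, and neither passed with the segmented duplex. All 4 of CD164 fell with the intact duplex, but over a range from -2.48 on the brightest to -0.67 on the dimmest.

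SERP1 had 7 probe sets in 2 bands. The 4 brightest fell with the intact duplex, with changes of -1.72 to -1.55, and stood at -0.61 to -0.51 with the segmented duplex, where none of the 4 passed. The 3 dimmer ones fell with both duplexes, with changes of -2.64 to -2.14 for the intact and -2.28 to -1.68 for the segmented duplex. On the dimmer probe sets the difference of the duplexes was 0.36 to 0.50, and on the brighter ones 0.94 to 1.21. How much of SERP1's change the segmented duplex gave therefore differed with the probe set read, and where each lies in the transcript was not used here.

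For SYPL1 and PEA15 the probe set that was brightest in mock cells changed most and so was not the brightest over all 4 arrays. In SYPL1 it had log2 levels of 10.58 and 10.78 in the mock pair, 7.68 with the intact and 8.37 with the segmented duplex. These are changes of -2.99 and -2.31, in place of -0.71 and -0.36 on the probe set used (adjusted p over all probe sets 0.00616 and 0.0273). In PEA15 the levels were 10.43 and 10.35, then 8.07 and 8.87, changes of -2.32 and -1.52 in place of -0.72 and -0.53 (adjusted p 0.00616 and 0.0286). When the probe set was chosen on the mock arrays alone, both genes passed with both duplexes, 15 and 9 members fell, and the members' median changes were -0.88 and -0.41. SNX18 likewise had dimmer probe sets with larger changes, -3.26 and -3.11 with the intact duplex, to log2 levels of 4.11 and 4.01 at which no detection call was available, and another, dim on every array, that stood at 0.09.

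Other members had probe sets that went in opposite directions. The 2 dimmer probe sets of NFATC1 stood at 0.45 and 0.34 with the intact duplex, and the dimmer one of STAT3 at 0.18, where none passed. Of 6 probe sets of BACE1, the brightest stood at -0.38 and 4 others at 0.45 to 0.65 with the intact duplex, and 1 of these 4 rose, by 0.65 (limma adjusted p = 0.0413 over all probe sets). RDH10 had 1 probe set that fell with the intact duplex, by 0.77, which was not the brightest. Of 7 probe sets of NR3C1, 5 lay above and 2 below mock with the intact duplex, and 1 rose, by 0.67. In all, 8 of the 18 members with several probe sets had changes of both signs with the intact duplex and 9 had only negative changes.

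**Figure D3:**
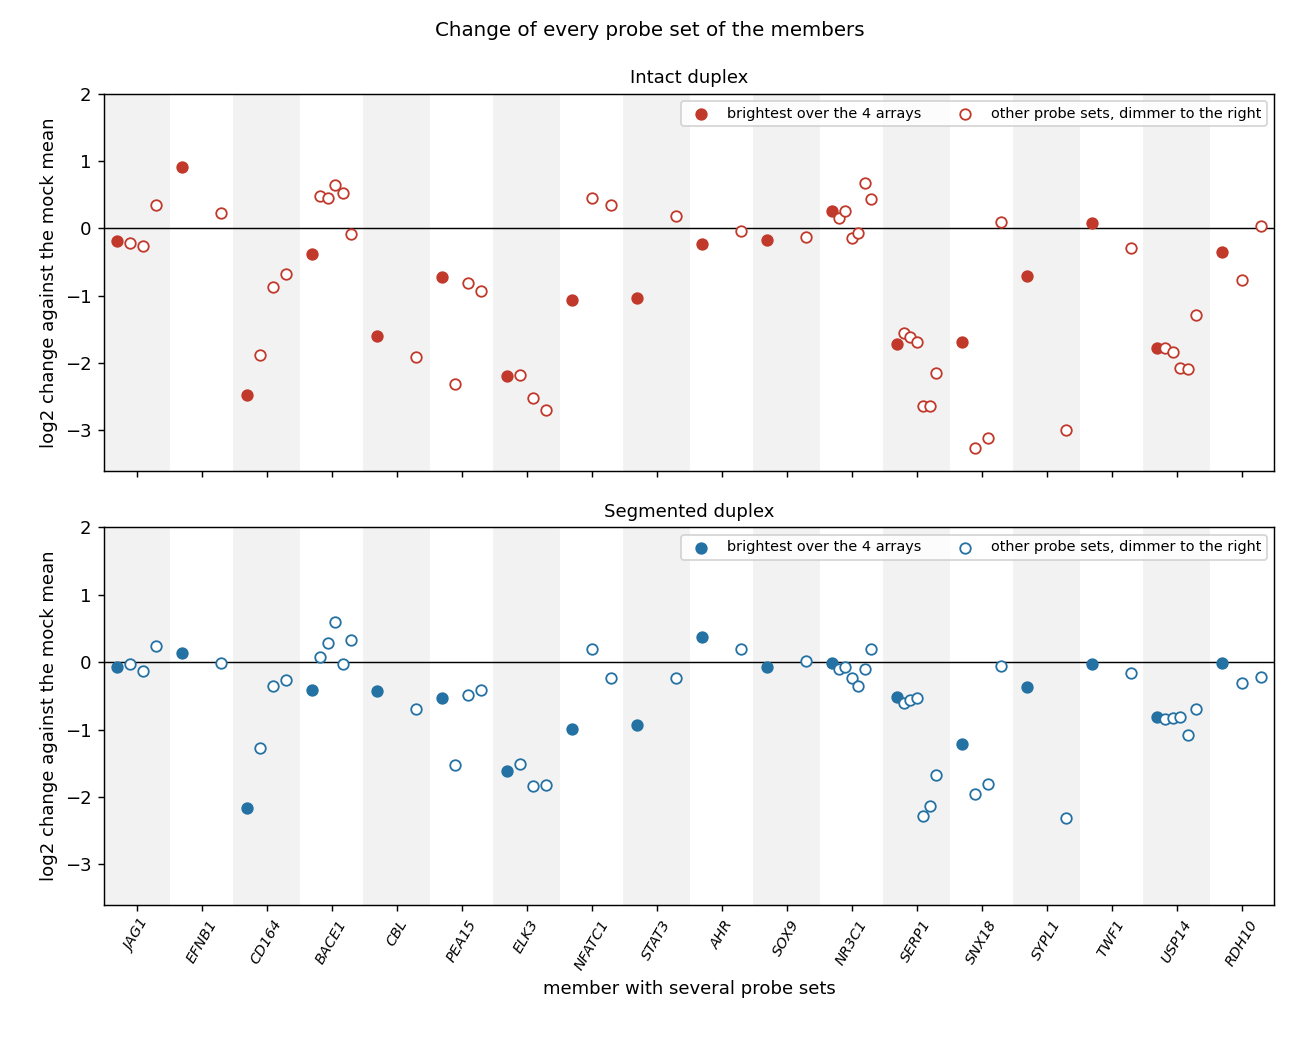
Log2 change against the mock mean of every probe set of the 18 members with several, for the intact duplex above and the segmented duplex below; filled points mark the brightest probe set over the 4 arrays. The 7 points of SERP1 form 2 bands with the segmented duplex, near -0.5 and near -2, and with the intact duplex SYPL1 has its open point at -2.99 and its filled point at -0.71.

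Genes that work with the members or resemble them were described from 11 lists. Over 48 measured close relatives of the members, 5 fell and 9 rose with the intact duplex, shares of 10.4% and 18.8%, and the median change was 0.04. Among all genes the shares for the intact duplex were 10.4% lower and 14.5% higher. With the segmented duplex 1 relative fell and 2 rose, shares of 2.08% and 4.17%, beside 2.68% and 3.31% of all genes. The relatives thus fell no more often than all genes with either duplex. ELK4, of the same ETS family branch as ELK3, fell by 1.79 with the intact duplex, from 7.45 and 7.34 on the mock arrays to 5.60, and by 1.19 with the segmented duplex. JAM3, a junction protein gene of the F11R family, fell by 1.39 with the intact duplex. CBLB, the relative of CBL, rose by 1.41 and 1.37 with the 2 duplexes, from 6.19 and 5.98 on the mock arrays to 7.49 and 7.45. CBL and CBLB thus moved in opposite directions with the intact duplex.

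In the Ras to ERK pathway 4 of 20 measured genes fell and 2 rose for the intact duplex, against 10.4% and 14.5% of all genes. With the segmented duplex 0 fell and 1 rose, against 2.68% and 3.31% of all genes. The same shares of all genes apply to the limma counts of the other lists. With the intact duplex the kinase gene ARAF fell by 1.75 and the adaptor gene GRB2 by 1.07. In the p38 pathway, of which MAPK14 is the central kinase, 3 of 15 fell and 4 rose for the intact duplex and 0 passed in limma with the segmented duplex, where 2 were lower and 2 higher at an unadjusted p below 0.05, against 11.1% and 16.2% of all genes. The p38 substrate kinase gene MAPKAPK3 fell by 1.92, from 12.12 and 12.03 to 10.16, and stood at -0.38 with the segmented duplex, while the p38 family member MAPK12 and the kinase gene RPS6KA5 rose by 0.94 and 0.87. Of 14 JAK-STAT genes, 2 fell and 3 rose for the intact duplex, and 0 fell and 2 rose with the segmented duplex. SOCS1, an inhibitor of JAK kinases, rose from 5.60 and 5.48 on the mock arrays to 8.04 and 7.83, and STAT4 rose by 2.26 and 1.18; the receptor gene OSMR fell by 1.40 with the intact duplex. The calcineurin and NFAT list of 15 genes had 2 falls and 2 rises for the intact duplex and 0 limma calls with the segmented duplex, where 2 were lower and 5 higher at an unadjusted p below 0.05, against the same 11.1% and 16.2% of all genes. Its calcium channel gene ORAI1 fell by 2.04 and the calcineurin regulator gene RCAN1 by 1.09, and RCAN2 rose by 1.05.

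Around JAG1, 3 of 28 measured Notch pathway genes fell and 4 rose for the intact duplex. These shares of 10.7% and 14.3% lay near the 10.4% and 14.5% of all genes. With the segmented duplex 1 fell and 3 rose (3.57% and 10.7%), against 2.68% and 3.31% of all genes. The receptor gene NOTCH3 rose from 7.78 and 7.77 on the mock arrays to 10.07 and 9.27, and the coactivator gene MAML3 rose by 2.09 and 1.15, while MAML1 fell by 1.27 with the intact duplex. The ephrin-B and Eph receptor list also holds the adaptor genes NCK1 and NCK2, while the ligand gene EFNB1 is counted with the members. Of its 9 measured genes, 0 fell and 3 rose with the intact duplex: EPHB3 by 1.54, EPHA4 by 1.46 and EPHB6 by 1.15. With the segmented duplex EPHB3 changed by 1.23, EPHA4 by 1.12 and EPHB6 by 0.75, and of these only EPHA4 passed the test.

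Of 15 partners and targets of AHR and the glucocorticoid receptor, 2 fell and 3 rose with the intact duplex, against 10.4% and 14.5% of all genes. Those shares of all genes also stand beside the intact counts of the lists below. For the segmented duplex they were 2.68% and 3.31%. CYP1B1, a target of AHR, fell by 1.31, ARNT, the partner of AHR, rose by 1.07, and TSC22D3, a target of the glucocorticoid receptor, rose by 1.25 and, with the segmented duplex, by 1.11. On the epithelial-mesenchymal transition list 3 of 14 fell and 3 rose with the intact duplex. VIM fell by 1.18 and FN1 rose by 1.22. CLDN1 fell by 1.34, from 4.58 and 4.68 on the mock arrays to 3.29, dim levels at which no detection call was available. Of 20 clathrin endocytosis genes, 1 fell and 4 rose for the intact duplex and 1 fell with the segmented duplex. The scaffold gene ITSN2 fell with both, with changes of -1.38 and -1.23, and DNM3, a relative of DNM2, rose by 1.27 and AP2B1 by 0.74 with the intact duplex. Of 14 actin monomer and filament end genes, 1 fell and 3 rose: the cofilin gene CFL2 changed by -2.10 and -0.99 with the 2 duplexes, past the test with both, CAP2 rose by 1.89 and 1.35, and AVIL, a relative of GSN, by 0.97 with the intact duplex.

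**Figure D4:**
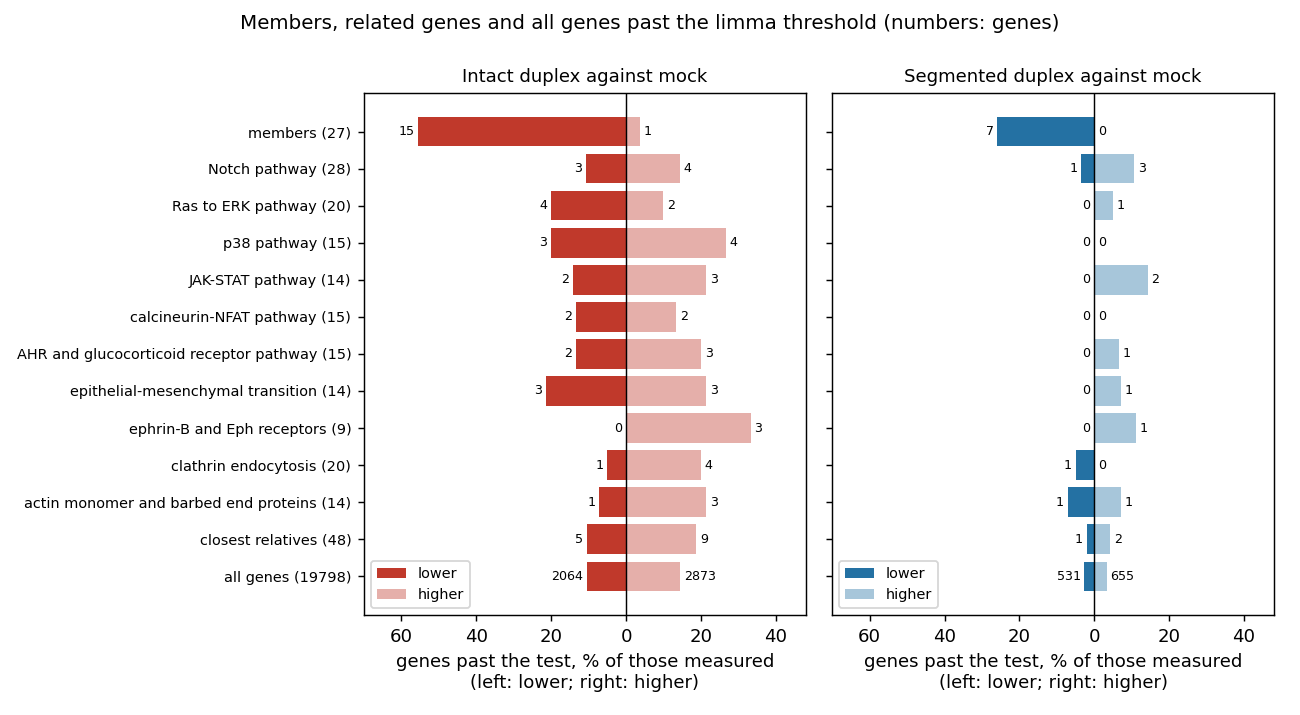
Percentage of measured genes that were lower (left of 0) or higher (right of 0) at a limma adjusted p below 0.05, for the members, 11 lists of related genes and all genes, with the number measured beside each name and the number called beside each bar. The members have the longest bar to the left with each duplex, 15 and 7 genes of 27, whereas with the intact duplex the lists of related genes have bars on both sides, except ephrin-B and Eph receptors, which has none to the left.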

How the data were processed

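The authors deposited intensity values, read as linear from their range (2.51 to 22268), made with RMA per the submitters' processing notes, which name no settings. RMA as usually run quantile-normalizes arrays, so a shift common to most genes would not be seen. No version or genome build is given in the sources used here. The deposited values were turned into log2 without a pseudocount, and probe sets took gene names through the platform's annotation, updated by Entrez identifier to a RefSeq gene table (GRCh38.p14; 35134 of 35184 probe sets with 1 gene matched). The 374 probe sets with several genes and the 16819 not listed were not used. Each gene was read from its brightest probe set by mean log2 level.

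Groups were compared with limma 3.58.1 in R 4.3.3, over all 4 arrays with a mean per group, eBayes, and Benjamini-Hochberg adjustment over 19798 genes, at 0.05. There was 1 residual degree of freedom, and the prior had 2.89. The limma fit was also run on simulated data, in which all 4 arrays varied alike and only the intact array was changed. Such data cannot check whether a lone duplex array varies like the mock pair. The members, the lists of related genes and the tests were chosen with earlier results of these data known. All measured members are named, and of each related list up to 3 genes, those past the test with the largest change with the intact duplex.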

Additional observations from a re-analysis of the deposited data

How the results depend on the processing

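Of the 16 members called with the intact duplex, 14 passed in all 8 limma fits, and 6 of 7 with the segmented duplex; NFATC1 (both duplexes) and STAT3 (intact) were lost with the mean of all probe sets. No call of a member reversed. For the values below that moved, the cause was not tested. The median member change with the intact duplex was -0.96 with arrays centred on their medians, -0.54 with the mean of all probe sets and -0.88 with the brightest probe set on the mock arrays, and with the segmented duplex -0.56 with centred arrays.

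All genes called numbered 7809 (intact), 5415 (segmented) and 2412 (difference of the duplexes) with the trended and robust prior, and 8970 and 2434 probe sets in the fit on all probe sets. With the segmented duplex they were 1849 after centring, 4781 without the dimmest 40% of genes, 4279 with log2(value + 16) and 2428 by the 1.5-fold rule. For the difference the last 3 gave 1850, 1138 and 1975.

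Members lower with the segmented duplex were 13 with the trended prior, 13 without the dimmest 40%, 12 with log2(value + 16) and 11 with any probe set counted; 1 was higher, AHR, in the first 2 settings. With any probe set counted, 3 were higher with the intact duplex. For the difference, members higher with the segmented duplex were 9 with the trended prior, 8 without the dimmest 40%, and 6 with log2(value + 16) or by the fold rule, and 1 was lower in each of these 4.

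Leaving out 1 mock array leaves no residual degree of freedom, so only the fold rule was applied: 5435 to 5765 genes and 15 to 16 lower members with the intact duplex, 3156 to 3480 genes and 9 to 11 lower members with the segmented duplex, with member medians of -0.79 to -0.66 and of -0.37 to -0.28. No paired analysis was possible because each duplex has a single array. The number of arrays limits the precision, and the level over background of dim probe sets is not known.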
